A study of Homo sapiens with 16 samples.

Results

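H3K4me1 and H3K27me3 were set against each other in BE2C cells treated with GSK-J4, using 4 of the 16 CUT&Tag libraries of the series, 2 for each mark. Members were taken from the sample titles, and every gene start and called region was sorted by whether it carried H3K4me1, H3K27me3, both marks or neither mark in each replicate. BE2C, a line grown from a human neuroblastoma, carries extra copies of MYCN. All 4 libraries came from cells given 2.5 µM GSK-J4, a cell-permeable inhibitor of the KDM6 histone demethylases, for 72 h. The compound controls were 4 libraries of BE2C cells given 0.1% DMSO for 72 h. In a separate knockdown experiment, BE2C cells were given a control siRNA (siCtrl) or an siRNA to KDM6B (siKDM6B33) for 72 h, with 4 libraries each. Every value therefore comes from a single cell line, at a single dose and a single time.

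In CUT&Tag an antibody to a histone mark tethers a transposase, which cuts and tags the DNA beside that mark. H3K4me1, placed mainly by the KMT2C and KMT2D methyltransferases, lies over enhancers and on the flanks of active promoters. H3K27me3, placed by EZH2 within Polycomb repressive complex PRC2 and removed by KDM6A and KDM6B, covers silent developmental genes in broad domains. Starts that carry an activating methylation and H3K27me3 together are known as bivalent or poised, although a library of many cells does not show whether both marks sit on the same chromosome copy.

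The text below rests on gene starts, so the 200 bases upstream of 5 starts are shown, chosen after the values were seen as examples of each class and of unlike base composition. They come from the GRCh37 (hg19) reference, are written 5′ to 3′ on the transcribed strand and hold no annotated exon, and capitals mark CpG, the dinucleotide that is dense at Polycomb target promoters. BARX1 and DBH carried both marks, OTX2 carried H3K27me3 only, CADM1 carried H3K4me1 only and E2F8 carried neither.
BARX1 upstream, chr9:96717638-96717837, minus strand: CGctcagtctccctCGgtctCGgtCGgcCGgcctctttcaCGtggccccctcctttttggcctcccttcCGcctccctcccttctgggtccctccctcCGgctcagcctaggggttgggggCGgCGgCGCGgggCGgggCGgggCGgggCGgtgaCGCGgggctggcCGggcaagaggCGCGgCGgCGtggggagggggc
DBH upstream, chr9:136501285-136501484, plus strand: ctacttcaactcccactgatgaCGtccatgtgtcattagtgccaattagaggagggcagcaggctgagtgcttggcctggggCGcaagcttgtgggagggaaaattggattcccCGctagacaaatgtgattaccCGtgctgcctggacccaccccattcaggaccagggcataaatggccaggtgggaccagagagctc
OTX2 upstream, chr14:57283412-57283611, minus strand: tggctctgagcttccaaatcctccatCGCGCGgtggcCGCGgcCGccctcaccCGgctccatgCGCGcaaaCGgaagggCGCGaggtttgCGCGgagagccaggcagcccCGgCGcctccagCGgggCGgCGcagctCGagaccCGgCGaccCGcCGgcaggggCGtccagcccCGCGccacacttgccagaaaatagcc
CADM1 upstream, chr11:115375676-115375875, minus strand: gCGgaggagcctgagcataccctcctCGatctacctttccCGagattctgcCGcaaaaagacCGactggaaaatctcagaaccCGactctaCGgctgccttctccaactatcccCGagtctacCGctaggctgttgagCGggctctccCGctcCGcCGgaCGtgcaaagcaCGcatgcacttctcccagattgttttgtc
E2F8 upstream, chr11:19263168-19263367, minus strand: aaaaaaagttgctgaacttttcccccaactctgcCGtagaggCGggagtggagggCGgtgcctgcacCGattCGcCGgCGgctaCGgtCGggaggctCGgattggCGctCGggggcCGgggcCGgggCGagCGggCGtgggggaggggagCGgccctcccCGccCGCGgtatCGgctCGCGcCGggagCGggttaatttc
These windows hold 23 CpG at BARX1, a homeobox regulator, and 4 at DBH, which encodes the enzyme that makes noradrenaline. OTX2, a head and eye homeobox gene, had 27, CADM1, a neural cell adhesion gene, had 15, and E2F8, a repressor of the cell cycle E2F family, had 26. The 5 were picked to differ in base composition, so their CpG counts say nothing of the classes.

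Each library came with broad islands and narrow peaks. H3K4me1 islands numbered 18993 in replicate 1 and 19176 in replicate 2, and H3K27me3 islands numbered 16675 and 8005. Their median width was 3000 bp in both H3K4me1 libraries, and for H3K27me3 it was 3000 bp in replicate 1 and 7400 bp in replicate 2. H3K27me3 replicate 1 therefore had the width of an H3K4me1 library, while replicate 2 resembled the DMSO libraries of its own mark (6600 and 7000 bp). Islands of at least 10 kb numbered 976 and 1020 for H3K4me1, and 844 and 2396 for H3K27me3. The number of reads per library was not used here, but the narrow peaks carry a measure of depth, the genome background in tags over a base. That background was 0.0547 and 0.0559 for H3K4me1 and 0.0507 and 0.0371 for H3K27me3, so H3K27me3 replicate 1 was the deeper of its pair. The part of this depth in the results was not tested, and the counts of starts, regions, bases and list members with both marks that rest on H3K27me3 replicate 1 are given with and without it.

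Island number, H3K4me1 against H3K27me3, was 19084 ± 129 against 12340 ± 6131 (SD, n = 2 each, exact two-sided permutation p = 0.33, the smallest that 2 libraries against 2 allow, Benjamini-Hochberg adjusted p = 0.583 over 7 measures). The covered length was 76.7 ± 0.837 Mb against 69.7 ± 4.03 Mb (SD, n = 2 each, exact permutation p = 0.33, adjusted p = 0.583). For both measures the 2 H3K4me1 libraries lay above the 2 H3K27me3 libraries. Median width overlapped between the marks (exact permutation p = 1.00), whereas with DMSO it was 3000 ± 283 bp for H3K4me1 and 6800 ± 283 bp for H3K27me3 (SD, n = 2 each) without overlap.

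**Figure D1:**
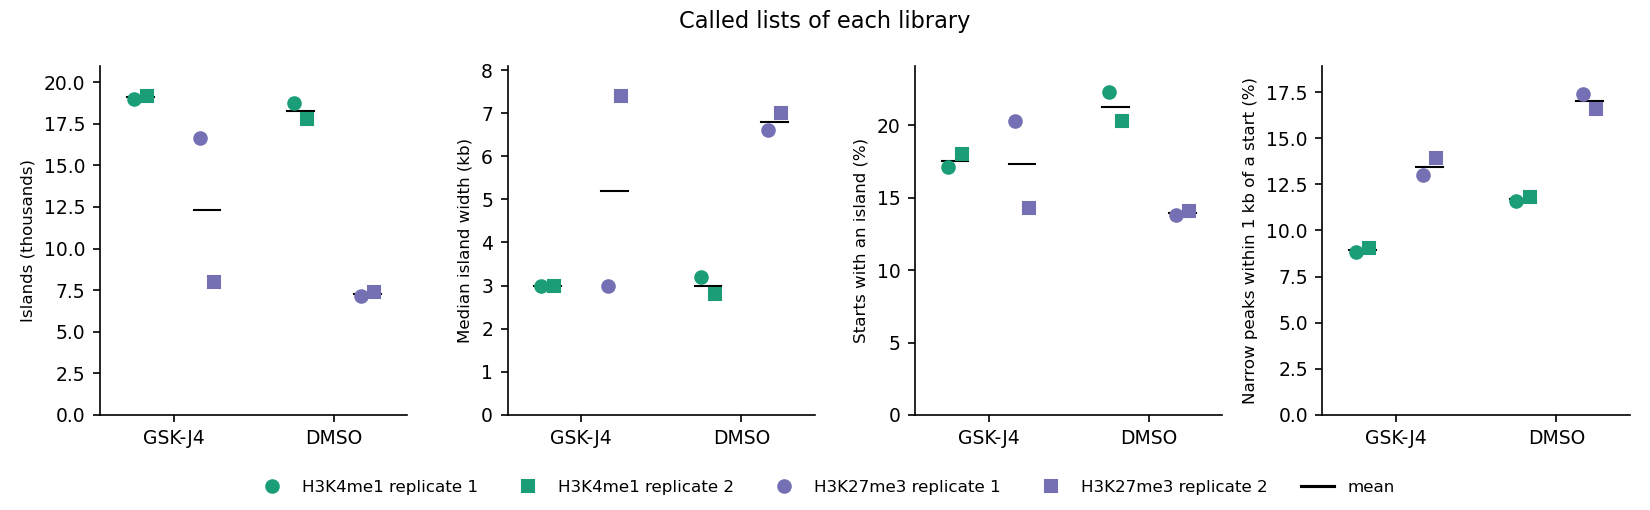
Number of islands, median island width, percent of protein-coding gene starts with an island and percent of narrow peaks within 1 kb of a start, for each library of the GSK-J4 and DMSO cells (circle, replicate 1; square, replicate 2; line, mean; axes start at 0). The 2 H3K27me3 GSK-J4 libraries lie far from each other in the first 3 panels, with median widths of 3000 and 7400 bp.

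To ask which genes carried which mark, 1 kb on each side of 20162 protein-coding gene starts was searched for islands, and 1 bp of overlap counted as a call. H3K4me1 was called at 3457 (17.1%) and 3621 (18.0%) starts, and H3K27me3 at 4094 (20.3%) and 2888 (14.3%). The groups overlapped (17.6 ± 0.575% against 17.3 ± 4.23%, SD, n = 2 each, exact permutation p = 1.00, adjusted p = 1.00). With DMSO the marks did not overlap, at 21.3 ± 1.41% for H3K4me1 and 13.9 ± 0.224% for H3K27me3 (SD, n = 2 each, exact permutation p = 0.33).

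Both marks in all 4 libraries were found at 1622 starts, or 8.04% of those searched. H3K27me3 only, called in both of its libraries and in neither of H3K4me1, was found at 777 starts (3.85%). H3K4me1 only was the smallest of the marked classes, with 467 starts (2.32%). Neither mark was called at 14729 starts (73.1%), and at 2567 (12.7%) the replicates of a mark disagreed. Genes share their libraries and are not replicates, so these counts carry no test. Among 18702 starts of long noncoding RNA genes, 1125 (6.02%) carried both marks, 409 (2.19%) H3K27me3 only and 413 (2.21%) H3K4me1 only.

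The class counts rested on which H3K27me3 library was asked. Of the starts whose replicates disagreed, 821 were called in both H3K4me1 libraries and in H3K27me3 replicate 1 but not in H3K27me3 replicate 2, whereas the mirror case, with replicate 2 but not replicate 1, was found at 59. Without H3K27me3 replicate 1, so that replicate 2 alone decided, 1681 starts carried both marks, 902 H3K27me3 only and 1288 H3K4me1 only. Without H3K27me3 replicate 2 these counts were 2443, 1199 and 526. The class with both marks thus changed little without replicate 1, and H3K4me1 only was the larger of the single-mark classes without replicate 1 but the smaller with both.

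By narrow peaks in place of islands, 1752 starts (8.69%) carried both marks, 577 (2.86%) H3K4me1 only and 503 (2.49%) H3K27me3 only, while 10591 (52.5%) carried neither and 6739 (33.4%) were split between replicates. The order of the single-mark classes was therefore opposite in the 2 kinds of list.

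Starts with both marks were next followed into the other treatments. Of the 1622, 1289 (79.5%) also carried both marks with DMSO, 90 carried H3K4me1 only and 9 H3K27me3 only there. In siCtrl cells 407 (25.1%) carried both, 745 (45.9%) H3K4me1 only and 367 (22.6%) H3K27me3 only. In siKDM6B33 cells 778 (48.0%) carried both, 713 (44%) H3K4me1 only and 49 (3.02%) H3K27me3 only. Of all 20162 starts, 3.04% carried both marks in siCtrl cells, 17.9% H3K4me1 only and 10.6% H3K27me3 only. In siKDM6B33 cells these shares were 8.38%, 44.1% and 6.32%. The starts with both marks in GSK-J4 cells were thus mostly single-mark starts in siCtrl cells, more often H3K4me1 only. There each class lay above its share of all starts. In siKDM6B33 cells both marks lay above that share, H3K4me1 only was close to it and H3K27me3 only lay below it. Among starts with both marks in GSK-J4 cells, the share with H3K4me1 only in siCtrl cells was 47.5% without H3K27me3 GSK-J4 replicate 1 and 59.1% without replicate 2. The single-mark classes differed from this in siCtrl cells, where 731 of 777 H3K27me3-only starts (94.1%) were H3K27me3 only and 385 of 467 H3K4me1-only starts (82.4%) were H3K4me1 only. With DMSO the order was the other way, as 479 of the 777 (61.6%) and 284 of the 467 (60.8%) were in the same class, below the 79.5% of starts with both marks. The compound and knockdown experiments used separate controls, so the siCtrl values are set beside the others and not tested against them. The marks shared many more bases in the compound experiment than in the knockdown experiment, in control and treated cells alike. Of the H3K4me1 bases, 48.7% with GSK-J4 and 43.8% with DMSO were also H3K27me3, against 4.52% with siCtrl and 8.62% with siKDM6B33. A difference in how the libraries of the 2 experiments were made was not tested, and a call of both marks in GSK-J4 cells is to be read with this in view.

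**Figure D2:**
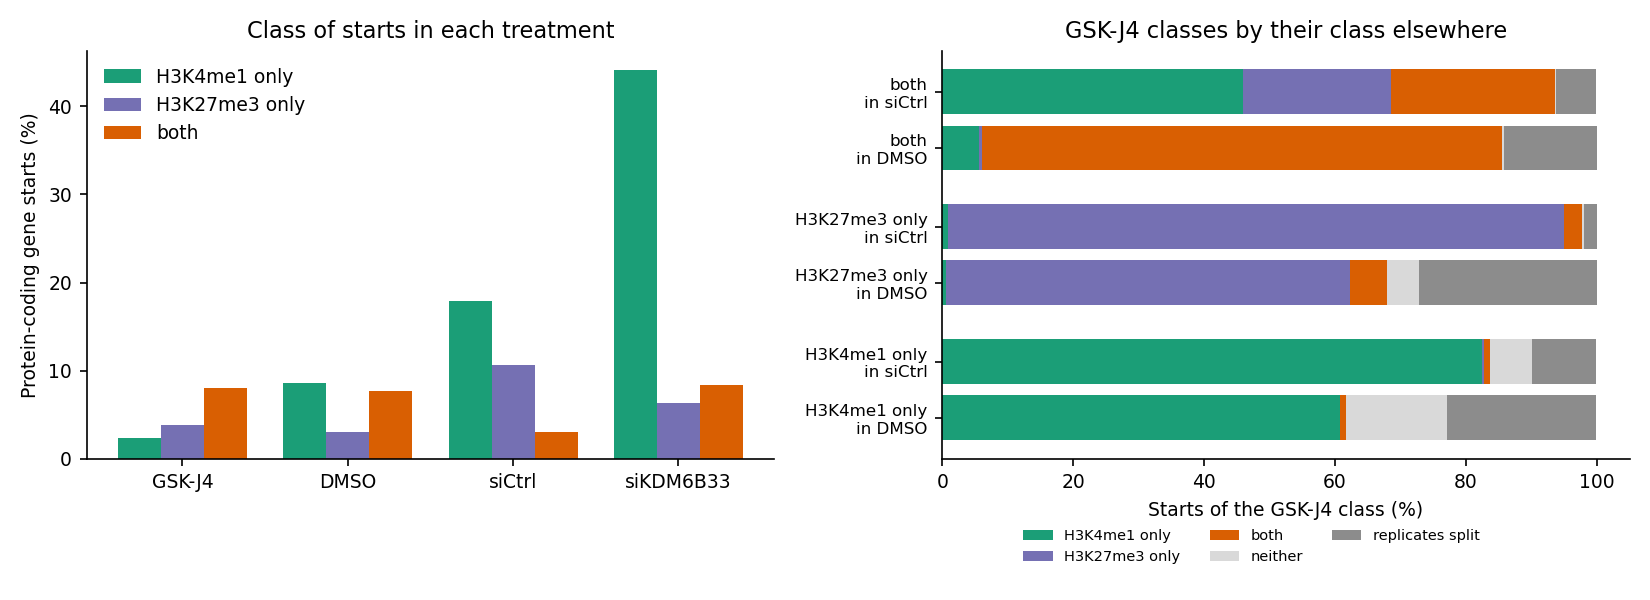
Left, percent of 20162 protein-coding gene starts that carried H3K4me1 only, H3K27me3 only or both marks by islands in each treatment, called in both libraries of a mark. Right, starts of each GSK-J4 class divided by their class in DMSO and siCtrl cells. Starts with both marks made up 8.04% with GSK-J4, 7.65% with DMSO, 3.04% with siCtrl and 8.38% with siKDM6B33. Of the GSK-J4 starts with both marks, 45.9% were H3K4me1 only in siCtrl cells, against 17.9% of all starts.

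The overlap was then measured per library. Of the starts called in H3K27me3 replicate 1, 59.7% were also called in both H3K4me1 libraries of GSK-J4 cells, and of those called in replicate 2, 58.2%. The DMSO values were 61.2% and 61.4%. GSK-J4 lay below DMSO without overlap, with a difference of -2.36 percentage points (58.9 ± 1.04% against 61.3 ± 0.0950%, SD, n = 2 each, exact two-sided permutation p = 0.33, adjusted p = 0.33 over 2 measures). Asked the other way, 49.5% and 49.4% of the H3K4me1 starts were called in both H3K27me3 libraries with GSK-J4, against 41.2% and 38.3% with DMSO, a difference of 9.74 points without overlap (exact permutation p = 0.33, adjusted p = 0.33). The H3K27me3 libraries were shallower with DMSO, with a genome background solved from their narrow peaks of 0.0298 and 0.0338 tags per base, against 0.0507 and 0.0371 with GSK-J4, and the part of this in the second difference was not tested. The siCtrl values were 21.5% and 21.7% of H3K27me3 starts and 14% and 14% of H3K4me1 starts. For background, among starts without H3K27me3, both H3K4me1 libraries called 3.27% and 7.46% with GSK-J4, 11.2% and 11% with DMSO and 21.5% in both cases with siCtrl. H3K27me3 starts were therefore richer in H3K4me1 than other starts in the compound experiment, while in siCtrl cells the shares were nearly equal. Single libraries weighed on both differences. The first turned positive without H3K4me1 GSK-J4 replicate 1 (4.40) or replicate 2 (1.68), and was -3.55 without H3K4me1 DMSO replicate 1, -14 without H3K4me1 DMSO replicate 2 and -1.63 without H3K27me3 GSK-J4 replicate 2. The second was 4.67 and 5.76 without H3K27me3 DMSO replicate 1 and 2, and 35.7 without H3K27me3 GSK-J4 replicate 2.

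The same question was put to regions. The 4 island lists of the GSK-J4 cells merged into 23102 regions, of which 5201 (22.5%) held islands of all 4 libraries, 4526 (19.6%) were H3K4me1 only and 1889 (8.18%) were H3K27me3 only. The remaining 11486 were split between replicates, and 5272 of them lacked only H3K27me3 replicate 2. Regions with both marks had a median length of 8.60 kb and together spanned 57.4 Mb. H3K27me3-only regions had a median of 7.80 kb and H3K4me1-only regions of 3.00 kb. A gene start lay within 1 kb of 37.4% of the H3K27me3-only regions, 30.8% of those with both marks and 8.44% of the H3K4me1-only regions. Of the H3K4me1-only regions, 61.2% lay inside gene bodies away from a start. Longer regions have more room to meet a start, and the part of region length in these shares was not tested. Without H3K27me3 replicate 1 the counts were 5221 with both marks, 9830 with H3K4me1 only and 2143 with H3K27me3 only. Without replicate 2 they were 10866, 4657 and 3693.

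Counted in bases, 29.7 Mb lay in islands of all 4 GSK-J4 libraries. This was the 48.7% given above of the 61.1 Mb called in both H3K4me1 libraries and 62.5% of the 47.6 Mb called in both H3K27me3 libraries. The share of H3K27me3 bases was 53.5% with DMSO, 9.13% with siCtrl and 12% with siKDM6B33. In siCtrl cells, islands called 79.4% of these 29.7 Mb H3K4me1 only, 8.16% H3K27me3 only and 12% both. The shared bases are part of the 61.1 Mb called in both H3K4me1 libraries. Of those 61.1 Mb, siCtrl islands called 83.2% H3K4me1 only, 4.11% H3K27me3 only and 6.67% both. The share with H3K4me1 only was thus close to that of all H3K4me1 bases, and slightly below it. Of all bases called in both H3K27me3 GSK-J4 libraries, 52.6% were H3K4me1 only and 37.1% H3K27me3 only in siCtrl cells. Without H3K27me3 replicate 1 the shared bases came to 34.1 Mb, which was 55.8% of the H3K4me1 bases and 47% of the H3K27me3 bases, and 80.8% of them were H3K4me1 only in siCtrl cells. Without replicate 2 they came to 41.9 Mb, 68.7% and 62.7%, with 83.8% H3K4me1 only in siCtrl cells.

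Likeness of whole lists, as the Jaccard index (shared length over combined length), was 0.662 between the H3K4me1 replicates and 0.518 between the H3K27me3 replicates. Across marks it was 0.456 and 0.459 for H3K27me3 replicate 1 with the H3K4me1 libraries, and 0.332 and 0.340 for replicate 2. Replicate 1 of H3K27me3 was thus nearer to H3K4me1 than replicate 2 was, yet nearer still to its own replicate.

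The longest regions of each class were read by their genes. Outside the MYCN interval, the longest region with both marks spanned 119 kb within RBFOX3, a neuronal splicing factor gene, at chr17:77109001-77228200, of which H3K4me1 covered 48.5% and 52.0% and H3K27me3 89.8% and 99%. The HOXB cluster followed with 109 kb at chr17:46617201-46726400, holding the starts of HOXB2 to HOXB9, where H3K4me1 covered 35.3% and 54.6% and H3K27me3 94.0% and 100%. The third lay in GSE1 at chr16:85228801-85328200 and was the reverse in balance, with 88.9% and 91.1% for H3K4me1 and 70.0% and 86.5% for H3K27me3. H3K27me3-only regions reached 49.8 kb at chr16:85955801-86005600, touching IRF8, an interferon regulatory factor of blood cells, with 68.3% and 99.6% covered. The next was 47.8 kb at chr14:23843201-23891000 and touched the cardiac myosin genes MYH6 and MYH7 (64.4% and 100%). H3K4me1-only regions were shorter, the longest being 12.2 kb at chr22:38700001-38712200 in CSNK1E, with 85.2% and 67.2% covered and no start inside.

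Narrow peaks resolved the same loci more finely. H3K4me1 had 75020 and 76183 peaks and H3K27me3 61141 and 40527, with median summits of 4, 4, 4 and 3 tags, so most peaks rested on few tags. Their median fold over background was 4.29 and 4.30 for H3K4me1 and 4.16 and 3.85 for H3K27me3. Peaks of H3K27me3 lay near gene starts more often, as 13.0% and 13.9% had their centre within 1 kb of a start against 8.82% and 9.04% for H3K4me1 (13.5 ± 0.609% against 8.93 ± 0.154%, SD, n = 2 each, exact two-sided permutation p = 0.33, adjusted p = 0.583). The libraries of the 2 marks did not overlap in this share, and with DMSO the order was alike (17.0 ± 0.539% against 11.7 ± 0.129%, SD, n = 2 each).

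Peaks of the marks often coincided. Of the H3K27me3 replicate 1 peaks, 25.1% met a peak of H3K27me3 replicate 2, while 37.8% and 35.4% met a peak of the H3K4me1 libraries. For H3K27me3 replicate 2 the shares were 38.0% for its own replicate and 35.0% and 38.3% for H3K4me1. Replicate 1 thus met H3K4me1 peaks more often than peaks of its own mark, and replicate 2 met them about as often. Among stronger peaks, with −log10 q of at least 5, replicate 1 met its own replicate at 61.9% and H3K4me1 at 72.4% and 72.2%, whereas replicate 2 met its own replicate at 83.3%, more often than H3K4me1 at 71.2% and 73.5%. H3K4me1 replicate 1 met its own replicate at 35.0% of peaks and H3K27me3 at 30.6% and 18.6%, and H3K4me1 replicate 2 at 34.4%, and at 28.2% and 20.1%. Averaged over the other mark's libraries, 24.4 ± 0.348% of H3K4me1 peaks and 36.6 ± 0.00741% of H3K27me3 peaks met the other mark (SD, n = 2 each, exact two-sided permutation p = 0.33). These shares depend on list length, and the H3K4me1 lists were the longer ones.

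Peak strength was listed by island state. Islands and peaks were called from the same libraries, so stronger peaks where more libraries had islands are no separate result. Peaks centred where all 4 libraries had islands had a median fold of 5.75 and 5.77 for H3K4me1 and 5.77 and 5.69 for H3K27me3. In single-mark islands the mark's own peaks had 4.99 and 5.01 for H3K4me1 and 5.22 and 5.13 for H3K27me3. Outside all islands, where 48.0% to 49.1% of the peaks of each library lay, the medians were 3.42 and 3.41 for H3K4me1 and 2.86 and 2.89 for H3K27me3. The median distance from an H3K27me3 peak to the nearest H3K4me1 peak of the same replicate number was 27 and 25 bp inside shared islands, and 30 and 34 bp inside H3K4me1-only islands. The reverse distance in shared islands, from H3K4me1 to H3K27me3 peaks, was 66 and 232 bp. In H3K27me3-only islands, which by their definition lack H3K4me1 islands, H3K27me3 peaks lay 6358 and 5428 bp from an H3K4me1 peak. Closeness to H3K4me1 peaks was thus not particular to the shared islands.

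CTCF, the insulator protein whose sites the study examined, has a core sequence that was looked for, forward and reverse, up to 100 bp from each peak centre. It was present at 1.1% of the peaks of H3K4me1 replicate 1, 1.08% of H3K4me1 replicate 2 and 1.1% of each H3K27me3 library, against 0.0987% to 0.121% in windows moved by 2 kb. The 95% Wilson intervals spanned 1.00% to 1.2% over the 4 libraries. They count peaks within a library and not libraries, and many peaks of the 2 marks coincide, so a difference between the marks was not tested. A match describes letters in the window and is no evidence of binding.

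Narrow peaks were then placed around starts, as the share of starts with a peak in a window. At starts with both marks, 17.4% and 18.6% had an H3K4me1 peak within 100 bp, and 25.1% and 19.7% an H3K27me3 peak. Between 500 and 1500 bp downstream the shares were 21.2% and 23.7% for H3K4me1, and 31.4% and 25.6% for H3K27me3. At that distance upstream they were 19.5% and 20.5%, and 22.2% and 16.3%, so H3K27me3 was higher downstream than upstream in both libraries. At starts with H3K27me3 only, 25% and 18.4% had an H3K27me3 peak within 100 bp, and 30.8% and 27.7% had one 500 to 1500 bp downstream. H3K4me1 peaks within 100 bp were found at 8.88% and 7.85% of these starts, against 6.98% and 7.41% of starts with neither mark. Downstream the H3K4me1 shares were 13.3% and 13.1%, against 4.65% and 4.53%. H3K4me1 peaks at H3K27me3-only starts were thus close to the unmarked starts at the start itself and commoner downstream of it.

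**Figure D3:**
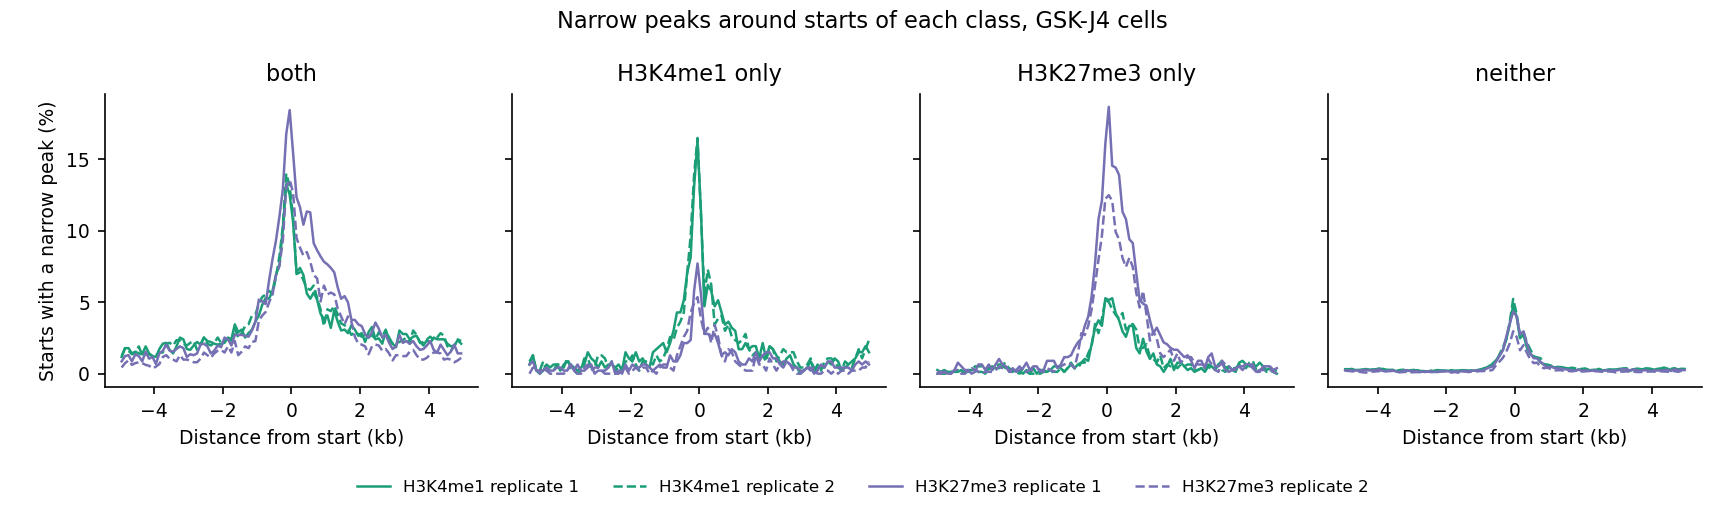
Percent of starts with a narrow peak in 100-bp bins from 5 kb before to 5 kb after the start, by class, for each GSK-J4 library (solid, replicate 1; dashed, replicate 2). At starts with both marks H3K4me1 reaches 13.3% and 14% and H3K27me3 18.4% and 13.6% in its highest bin.

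What the classes shared in sequence was described without a test. The 1000 bp around starts with both marks had a median GC content of 65.8%, against 63.3% for each single-mark class, 57.1% for starts with neither mark and 59.2% for all starts. CpG-rich starts, with at least 55% GC and an observed over expected CpG ratio of at least 0.65, made up 60.2% of the class with both marks, 58.6% of H3K27me3 only, 49.5% of H3K4me1 only and 44.3% of neither. Without H3K27me3 replicate 1 these shares were 60.4%, 54.0%, 55.7% and 44.8%, so the single-mark classes changed order. Within the class with both marks this share was 47.1% where siCtrl cells had H3K4me1 only, 72.2% where they had H3K27me3 only and 71.0% where they had both. The class thus held parts that differed in CpG content. Starts with H3K27me3 only belonged to longer genes, with a median gene length of 48.4 kb against 16.4 kb for both marks, 20.6 kb for H3K4me1 only and 28.0 kb for neither.

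Gene lists, some of which share members, were then read against the share of all protein-coding genes in each class, with no test. With DMSO 7.65% of all genes carried both marks, 3.06% H3K27me3 only and 8.65% H3K4me1 only. In siCtrl cells these shares were 3.04%, 10.6% and 17.9%. HOX genes, which set position along the body axis and are classical Polycomb targets, also check the labels. H3K27me3 was called at 33 and 34 of 39 HOX starts and H3K4me1 at 23 and 27. Both marks were called at 22 of 39 (56.4%, against 8.04% of all genes), H3K27me3 only at 8 (20.5%, against 3.85%) and H3K4me1 only at 0, while 5 were split and 4 carried neither. With DMSO 22 of the 39 carried both marks as well and 4 H3K27me3 only, so the count with both was not particular to GSK-J4. In siCtrl cells 20 were H3K27me3 only and 7 carried both, beside 10.6% and 3.04% of all genes. HOXA3 had islands over 92.0% and 86.0% of the 10 kb around its start for H3K4me1 and 100% in both H3K27me3 libraries, and HOXB9 had 44% and 76.0%, and 100% in both. HOXB2 had no H3K4me1 island within that 10 kb, and 64.7% and 100% H3K27me3. The starts of HOXB3 and HOXB6 lie so close that their windows overlap, so they are not separate observations. Without H3K27me3 replicate 1, 23 HOX starts carried both marks and 8 H3K27me3 only. The narrow peaks gave another count, with 2 of the 39 HOX starts called for both marks, 2 for H3K27me3 only and 23 for neither, beside 8.69%, 2.49% and 52.5% of all genes.

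Among 74 other homeobox and developmental regulators, 43 (58.1%, against 8.04% of all genes) carried both marks, 10 (13.5%, against 3.85%) H3K27me3 only and 0 H3K4me1 only, with 6 at neither. With DMSO 46 of the 74 carried both and 8 H3K27me3 only. BARX1, a regulator of stomach and jaw development, had islands over 100% of the 10 kb around its start in all 4 GSK-J4 libraries and all 4 DMSO libraries, and was H3K27me3 only in siCtrl cells. LHX3, a pituitary and motor neuron factor, had 98.3% and 100% for H3K4me1, and 90.3% and 100% for H3K27me3. OTX2 had no H3K4me1 in the 10 kb, with 35.9% and 83.9% for H3K27me3. IRX2, another homeobox gene, likewise had none for H3K4me1, and 47.9% and 97.9% for H3K27me3. Without H3K27me3 replicate 1 the list had 44 starts with both marks, and without replicate 2 also 44. By narrow peaks 11 of the 74 carried both marks (14.9%, against 8.69% of all genes), 7 H3K27me3 only (9.46%, against 2.49%) and 33 neither (44.6%, against 52.5%), so the share with both lay far nearer to all genes than by islands. BARX1 itself was called neither by narrow peaks within 1 kb of its start, although 2 and 3 H3K4me1 peaks and 6 and 4 H3K27me3 peaks lay in the 10 kb.

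Of 38 WNT ligands, receptors and inhibitors, 15 (39.5%, against 8.04% of all genes) carried both marks, 1 (FZD1, a receptor) H3K27me3 only (2.63%, against 3.85%) and 14 neither (36.8%, against 73.1%). The ligand gene WNT10A had 100% and 99.7% for H3K4me1, and 95.7% and 97.7% for H3K27me3 in the 10 kb around its start. WNT1 had 74.0% and 66.0%, and 86.0% and 100%. Both were called with both marks with DMSO and siCtrl as well. The list had 8 such starts in siCtrl cells and 17 with DMSO, beside 3.04% and 7.65% of all genes. By narrow peaks 4 of the 38 carried both (10.5%, near the 8.69% of all genes), so the high share held by islands and not by narrow peaks. Another 4 carried H3K27me3 only by narrow peaks (10.5%, against 2.49%), above all genes and not below them as by islands. By islands 15 carried both with either H3K27me3 library left out.

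**Figure D4:**
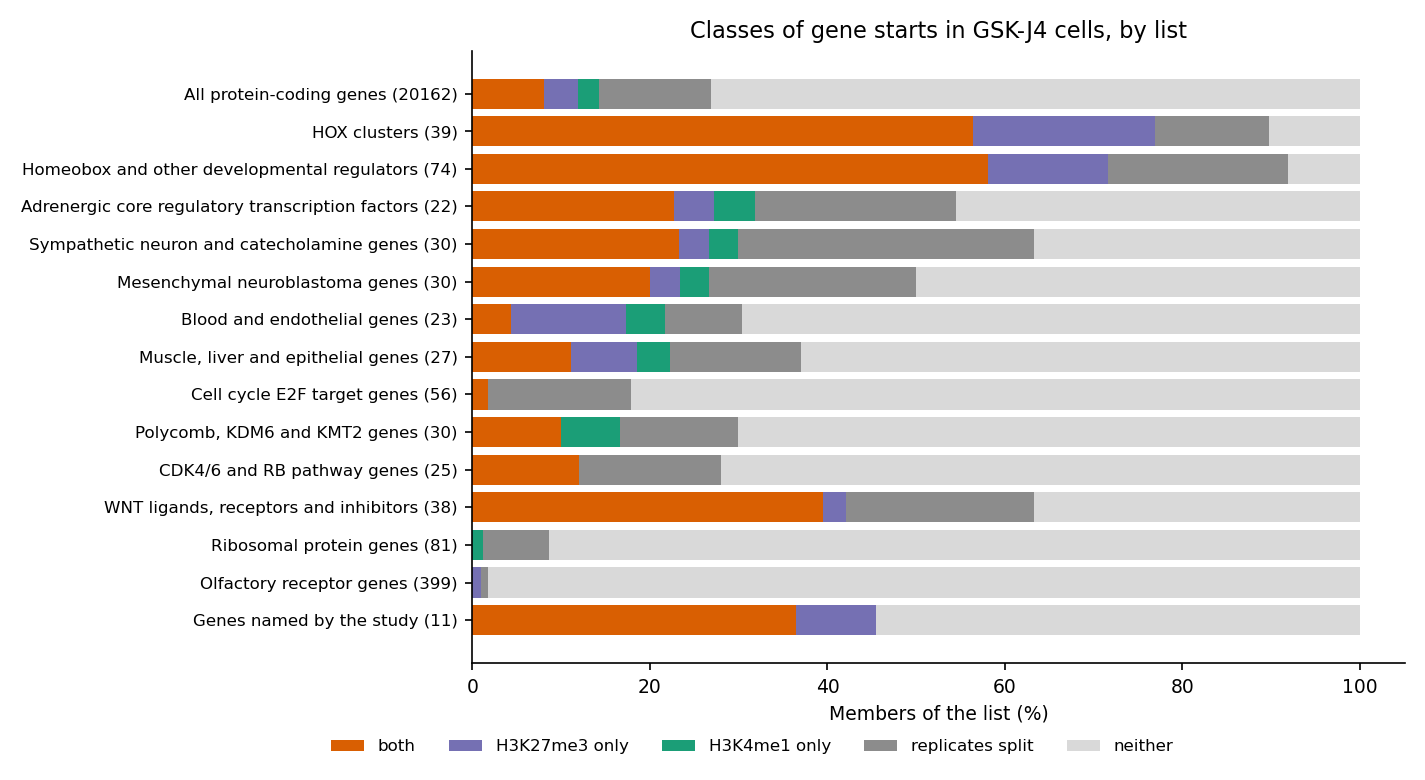
Share of the members of each gene list in each class in GSK-J4 cells, by islands within 1 kb of the start, with the number of members in brackets and all protein-coding genes on top. HOX and other developmental regulators hold 56.4% and 58.1% of starts with both marks against 8.04% of all genes.

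The adrenergic core regulatory factors, which fix the sympathetic identity of most neuroblastomas, were next. Of 22, 5 carried both marks (22.7%, against 8.04% of all genes), namely MYCN, GATA2, HAND1, PHOX2A and KLF13, and with DMSO 5 of the 22 did. SATB1 carried H3K27me3 only (4.55%, against 3.85% of all genes) and 1 factor H3K4me1 only (4.55%, against 2.32%), so each of these classes rested on 1 start and was near all genes. Neither mark was called at 10 (45.5%, against 73.1%), and 5 were split. By narrow peaks 3 of the 22 carried both (13.6%, against 8.69%), and by islands 5 did without H3K27me3 replicate 1 and 6 without replicate 2. HAND1, a basic helix-loop-helix factor of the sympathetic lineage, had 72.0% and 57.9% for H3K4me1, and 57.9% and 74.0% for H3K27me3. With DMSO its values were 100% and 86.0%, and 98.1% and 90.0%. PHOX2A had 30.9% and 28.9%, and 22.0% and 58.9%. HAND2 had no island in the 10 kb in any GSK-J4 library, and GATA3 had none with GSK-J4 but 28.0% and 10.0% for H3K4me1 with DMSO.

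Sympathetic neuron and catecholamine genes gave 7 of 30 with both marks (23.3%, against 8.04% of all genes), 11 with neither (36.7%, against 73.1%) and 10 split. H3K27me3 only was called at INSM1 and H3K4me1 only at CADM1, with 44% and 24.0% covered and no H3K27me3, and 1 start of 30 (3.33%) in each class is near the 3.85% and 2.32% of all genes. By narrow peaks 4 carried both marks (13.3%, against 8.69%). With DMSO 9 of the 30 carried both by islands and 8 H3K4me1 only, beside 7.65% and 8.65% of all genes. TH, the rate-limiting enzyme of catecholamine synthesis at chr11:2185159-2193045, had 100% and 92.0% for H3K4me1, and 100% and 90.0% for H3K27me3. DBH, the next enzyme but one in that path, had 100% and 92.0%, and 76.0% and 71.2%. RET, a receptor tyrosine kinase of neural crest cells, had 100% and 82.0%, and 92.0% and 100%. TH, DBH and RET were all called H3K4me1 only in siCtrl cells. There 17 of the 30 were H3K4me1 only, beside 17.9% of all genes, and 1 carried both (3.33%, near the 3.04% of all genes). INSM1, a neuroendocrine zinc finger factor, had 0 in both H3K4me1 libraries with GSK-J4 and 50.5% and 30.5% with DMSO, with 24.0% and 44% for H3K27me3 with GSK-J4. H3K27me3 replicate 1 weighed on this list, as 12 starts carried both marks without replicate 2 and 7 without replicate 1, and 6 carried H3K4me1 only without replicate 1 against 1 with both libraries.

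Mesenchymal neuroblastoma genes, which mark the other known cell state of this tumour, gave 6 of 30 with both marks (20.0%, against 8.04% of all genes) and 15 with neither (50.0%, against 73.1%). SIX4 was H3K27me3 only and FOSL2 H3K4me1 only (3.33% each, near the 3.85% and 2.32% of all genes). With DMSO 7 carried both, beside 7.65% of all genes. By narrow peaks 3 carried both (10.0%, near the 8.69% of all genes) and 6 H3K27me3 only (20.0%, against 2.49%). By islands 6 carried both without H3K27me3 replicate 1 and 7 without replicate 2, and 3 carried H3K27me3 only without replicate 2. PRRX1, a driver of the mesenchymal state, had 68.0% and 70.7% for H3K4me1 and 100% in both H3K27me3 libraries. FOSL1, an AP-1 subunit, had 26% and 38.0%, and 54.0% and 78.4%. PRRX1 and FOSL1 were H3K27me3 only in siCtrl cells, unlike TH, DBH and RET, although all of them carried both marks with GSK-J4 and with DMSO. Other members went the other way, as FOSL2, SNAI2 and TWIST1 were H3K4me1 only in siCtrl cells and the sympathetic gene INSM1 H3K27me3 only. Of the 30 mesenchymal genes, 10 were H3K27me3 only there and 6 H3K4me1 only, beside 10.6% and 17.9% of all genes. Another 2 carried both and 11 neither.

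Genes of other tissues were read next. Among 23 blood and endothelial genes found, 16 carried neither mark (69.6%, against 73.1% of all genes), 1 both (4.35%, against 8.04%), and 3 H3K27me3 only (13.0%, against 3.85%). The count with both marks was also 1 with either H3K27me3 library left out. By narrow peaks 14 of the 23 carried neither (60.9%, against 52.5%), 2 both (8.70%, near 8.69%) and 2 H3K27me3 only (8.70%, against 2.49%). The share with neither thus lay above all genes by narrow peaks and below them by islands, and the low share with both was not seen. PTPRC and CD3E, markers of white blood cells and T cells, had no island in the 10 kb around their starts. HBA1, an alpha globin gene with a near-identical neighbour, carried both marks, with 69.2% and 88.0% for H3K4me1 and 100% in both H3K27me3 libraries. SPI1, a myeloid factor, was H3K4me1 only, with 26% and 24.0% covered and no H3K27me3. TAL1, a blood stem cell factor, was H3K27me3 only, with 79.0% and 83.0% covered and no H3K4me1. Of 27 muscle, liver and epithelial genes, 17 carried neither (63.0%, against 73.1% of all genes), 3 both (11.1%, against 8.04%) and 2 H3K27me3 only (7.41%, against 3.85%). The 3 with both were ESRP1, FOXA1 and KRT19, and without H3K27me3 replicate 2 there were 5. Without replicate 1, 3 carried H3K4me1 only, against 1. By narrow peaks 1 of the 27 carried both (3.70%, against 8.69%) and 16 neither (59.3%, against 52.5%), so both shares crossed to the other side of all genes. KRT5, a basal epithelial keratin, had 79.1% and 100% for H3K27me3 and no H3K4me1, while the liver genes ALB and APOA1 had no island in any GSK-J4 library.

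By islands, ribosomal, cell cycle and olfactory receptor genes carried neither mark more often than all genes. Of 81 ribosomal protein genes, 74 (91.4%, against 73.1% of all genes) carried neither, 1 H3K4me1 only (1.23%, against 2.32%) and 6 were split. By narrow peaks 47 carried neither (58.0%, against 52.5%) and 5 both (6.17%, against 8.69%), nearer to all genes. By islands without H3K27me3 replicate 1, 3 carried H3K4me1 only. Of 56 cell cycle genes driven by E2F factors, 46 (82.1%) carried neither, 9 were split and ORC6, a subunit of the origin recognition complex, carried both. By narrow peaks the order turned, as 21 of the 56 carried neither and 6 both, where 52.5% and 8.69% of all genes did. Island calls at these 56 starts numbered 6 in H3K27me3 replicate 1 and 2 in replicate 2, and both marks were called at 2 without replicate 1 and 4 without replicate 2. H3K4me1 only was called at 3 without replicate 1 and at 0 with both. ORC6 had 16.0% and 18.0% for H3K4me1, and 26% and 34.0% for H3K27me3. Olfactory receptor genes, silent outside the nose, gave 392 of 399 with neither (98.2%), 4 with H3K27me3 only (1.00%, against 3.85% of all genes) and none with H3K4me1 only or both.

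Genes of the marking machinery came next. Of 30 Polycomb, KDM6 and KMT2 genes, 21 carried neither (70.0%, against 73.1%), 3 both (10.0%, against 8.04%) and 2 H3K4me1 only (6.67%, against 2.32%). By narrow peaks 1 carried both (3.33%, against 8.69%) and 15 neither (50.0%, against 52.5%), which put both marks on the other side of all genes. With either H3K27me3 library left out 4 carried both. KDM6B, the demethylase that GSK-J4 inhibits, had 51.3% and 65.3% for H3K4me1, and 47.3% and 59.3% for H3K27me3, beside 55.3% and 61.3%, and 61.3% and 61.3%, with DMSO. It was H3K4me1 only in siCtrl cells. JARID2, a PRC2 subunit, had 10.0% in both H3K4me1 libraries, and 10.0% and 43.0% for H3K27me3, so its call rested on islands of 1.0 kb in 3 libraries.

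CDK4/6 and RB pathway genes gave 3 of 25 with both marks (12%, against 8.04% of all genes), 18 with neither and 4 split. CDKN1A, which encodes the cell cycle inhibitor p21, had 46.0% and 50.0% for H3K4me1, and 50.0% and 56.0% for H3K27me3. CCND2, a D-type cyclin, had 67.4% and 69.4%, and 88.0% and 92.0%. CDK4, a kinase that D-type cyclins activate, was the other of the 3, and all 3 also carried both marks with DMSO. With either H3K27me3 library left out 3 carried both. By narrow peaks 0 of the 25 carried both (against 8.69% of all genes) and 9 neither (36%, against 52.5%), so for both marks the list lay below all genes, the other side from islands. CDKN1A and CDK4 were split and CCND2 was H3K27me3 only.

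Of the genes that the study itself discussed, a list chosen on these samples and so no independent evidence, 11 were protein-coding starts. MYCN, CDKN1A, AKT1 and KDM6B carried both marks (36.4%, against 8.04% of all genes), and CYRIA (FAM49A in older annotation) H3K27me3 only (9.09%, against 3.85%). BUB1, E2F8, NAV2, AURKB, BIRC5 and CCNE1 carried neither (54.5%, against 73.1%). By narrow peaks MYCN alone carried both (9.09%, near the 8.69% of all genes), while CDKN1A and KDM6B were split and AKT1 carried neither. MYCN, at chr2:16080672-16087129, had 92.7% of the 10 kb in islands in all 4 GSK-J4 libraries and in all 4 DMSO libraries. Island coverage was saturated, at the same value in all 8 libraries, so it cannot show whether marks or treatments differed at this amplified gene. The interval chr2:16000000-17000000 around it was covered over 47.1% and 47.5% by H3K4me1 and 47.8% and 47.6% by H3K27me3. The long noncoding RNA gene GACAT3 next to MYCN was called in all 4, with all of its length and 5 kb on each side in islands. The copy number of this interval and the level of a mark per copy cannot be told apart here.

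CYRIA, at chr2:16730727-16847599 in the same interval, was different. H3K27me3 covered 32.0% and 46.0% of the 10 kb around its start and H3K4me1 none, and with DMSO none of the 4 libraries had an island of either mark there. In siCtrl and in siKDM6B33 cells it was H3K27me3 only, as with GSK-J4. AKT1, a kinase of growth signalling, had 59.1% and 74.9% for H3K4me1, and 80.0% and 86.0% for H3K27me3, while with DMSO H3K27me3 covered 0 and 48.9%. NAV2, a neuron navigator gene, was called neither at its start with GSK-J4 but H3K27me3 only with DMSO, where H3K27me3 covered 45.3% and 47.3% against 11.3% and 17.3% with GSK-J4. BUB1, AURKB and BIRC5, which act in mitosis, had no island within the 10 kb in any of the 8 compound libraries.

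**Figure D5:**
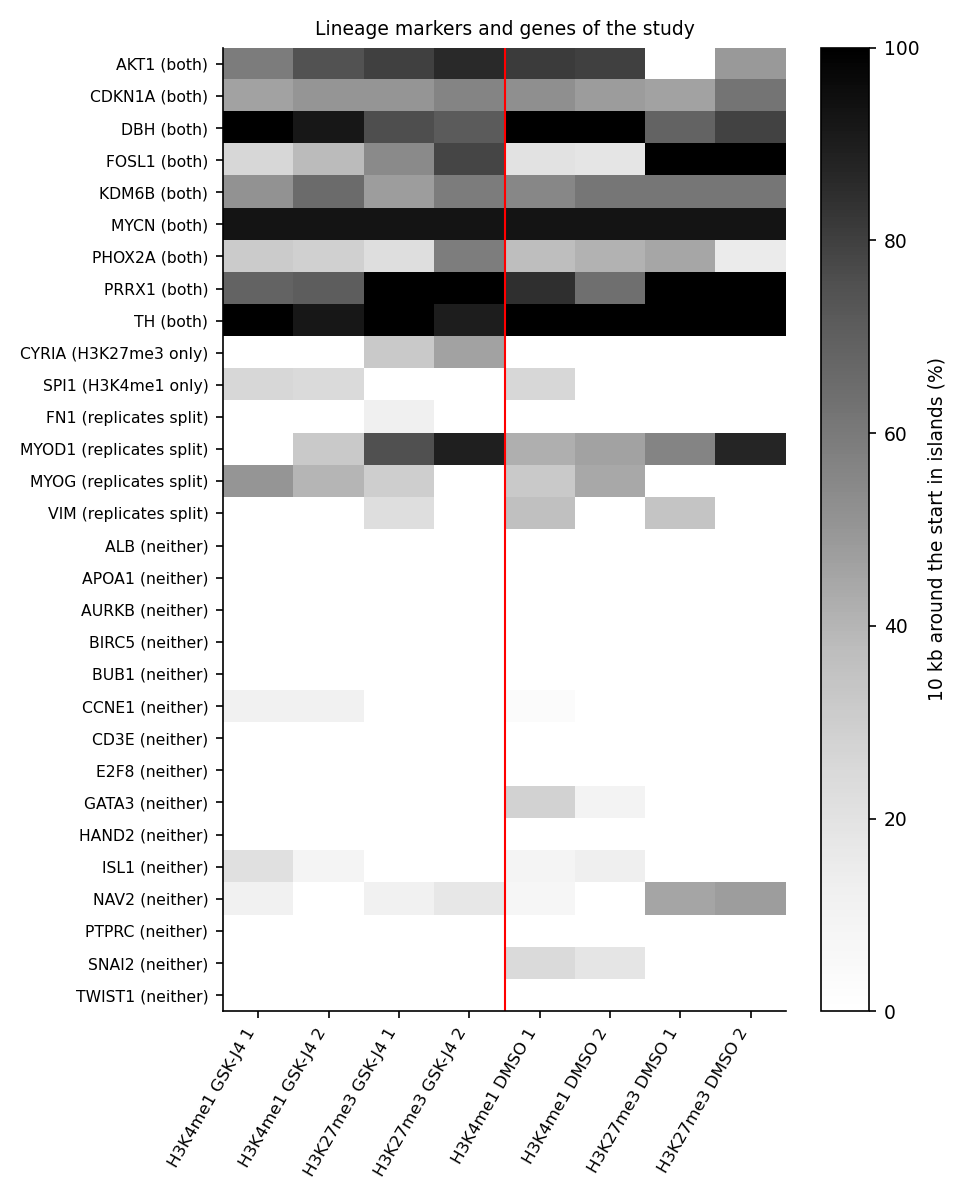
Percent of the 10 kb around the start that islands covered (grey scale from 0 to 100), for 30 lineage markers and genes of the study in the 4 GSK-J4 and 4 DMSO libraries, divided by the red line. MYCN is at 92.7% in every column, TH and DBH are high for both marks, and CYRIA is marked in the H3K27me3 GSK-J4 columns alone, at 32.0% and 46.0%.

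The widest examples of each class complete the picture. Among starts with both marks, the longest stretches shared by all 4 libraries included ASIC4 with 29.2 kb, an acid-sensing ion channel gene, CYB561 with 30.6 kb, a cytochrome of secretory vesicles, and RARA with 22.0 kb, a retinoic acid receptor. ASIC4, CYB561 and RARA had 100% of the 10 kb covered in every GSK-J4 library and were H3K4me1 only in siCtrl cells. Among H3K27me3-only starts, SIGLEC9, a lectin of white blood cells, had islands of 19.4 and 22.8 kb, and MYH6 of 19.0 and 47.8 kb, both with 100% of the 10 kb covered by H3K27me3 and none by H3K4me1. The widest H3K4me1-only islands lay at AQP5, a water channel gene, with 27.8 and 17.4 kb, and SLCO4A1, an organic anion transporter gene, with 22.0 and 27.4 kb. There H3K27me3 still covered 14.5% and 38.5% of the 10 kb at AQP5, and 10.5% and 28.5% at SLCO4A1, outside the window of the start. Of the 8 widest H3K4me1-only starts, at most 1 from each region, all 8 had H3K27me3 in that 10 kb in at least 1 library. Of the widest H3K27me3-only starts, 7 are described here, and 5 of them had no H3K4me1 island in the 10 kb, namely CFAP74, HOXA4, TIGAR, MYH6 and SIGLEC9. HOXB3 and PRAC1, both in or beside the HOXB cluster, had 29.3% and 52.0%, and 38.8% and 58.8%.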

How the data were processed

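CUT&Tag was analysed for H3K4me1 and H3K27me3 in BE2C cells given GSK-J4, with DMSO, siCtrl and siKDM6B33 libraries beside them, 2 replicates in each of 8 groups taken from the sample titles. Members and gene lists were chosen with earlier results of these data known. The study describes them as biological replicates.

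The authors aligned reads to hg19 with BWA 0.7.12, removed duplicates with Picard 1.65, and called islands with SICER 1.1 and narrow peaks with MACS2 library by library. The deposited island lists give a score per island, and island lengths are multiples of 200 bp. The deposited narrow peak lists give a score, the fold (a ratio) over the background, −log10 p and −log10 q. Neither these lists nor the values hold read counts, and the authors' spike-in scaling was not used here.

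Python 3.11.15 with NumPy, pandas and SciPy was used with GRCh37 and GENCODE 44 mapped to it. No coordinate lay past a chromosome end. A start is the 5′ end of a protein-coding gene record. A mark was called where an island met the 1 kb on each side by 1 bp, and a class needed both or none of the replicates of each mark. Genome background and summit height were solved from the fold and −log10 p of each peak, within 0.02 on the −log10 scale. Libraries were compared by exact two-sided permutation tests with Benjamini-Hochberg adjustment, which cannot go below 0.33 for 2 against 2. Wilson intervals (95%) cover counting error only. The interval and class code was tested on simulated data, where 100% of 15069 starts returned to their class, with 200 planted per marked class.

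Genes were named by rule: those the study discussed, up to 4 members per marked class of each of 14 lists by island length, the 8 longest per marked class, and lineage markers. Some genes that the rule names are not reported here. Other members were named after their values were seen. Windows, overlap, island size, equal covered length, peak thresholds, single libraries and a replicate block were tried as alternatives. Knockdown narrow peaks were not used here. Same-numbered libraries of the 2 marks did not deviate together (Pearson 0.0574 across 20162 starts, which are not independent replicates), so the numbers were not taken to pair the marks.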

Additional observations from a re-analysis of the deposited data

Results flagged for a closer look

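At 5 starts the GSK-J4 and DMSO libraries went opposite ways, with H3K27me3 only in all 4 GSK-J4 libraries and H3K4me1 only in all 4 DMSO libraries. The reverse was found at 0 starts. The difference itself was not tested. H3K27me3 minus H3K4me1 coverage of the 10 kb around the start, as a difference of the group means, was 16.0 percentage points with GSK-J4 and -26.0 with DMSO at AQP10, a water channel gene. At HDGF, a growth factor gene, it was 25 and -26.2, at GLDN, a gene of myelinated nerves, 32.0 and -14.0, at SLC8A2, a sodium-calcium exchanger gene, 22.0 and -40.0, and at BCAT2, an enzyme of branched-chain amino acid breakdown, 19.0 and -55.8. The H3K27me3 islands over the start were short in GSK-J4 replicate 1, at 1.2 kb (AQP10), 1.0 kb (HDGF), 1.4 kb (GLDN), 3.4 kb (SLC8A2) and 2.4 kb (BCAT2), and 4.2 to 9.8 kb in replicate 2. By narrow peaks with GSK-J4, HDGF and GLDN carried both marks, SLC8A2 H3K4me1 only and BCAT2 neither, and AQP10 was split, so none of the 5 was H3K27me3 only in both kinds of list.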

How the results depend on the processing

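Classes at starts were counted again. H3K27me3-only starts numbered 503 by narrow peaks, against 777. H3K4me1-only starts numbered 216 at equal covered length, against 467. With a call in either replicate the counts were 1107 for H3K4me1 only, 1324 for H3K27me3 only and 3002 for both. Leaving out each library in turn gave 526 to 1288, 866 to 1199, 1681 to 2443 and, for neither, 14854 to 15151 starts, as fewer libraries then have to be called. For regions the ranges were 4657 to 9830 H3K4me1 only, 1987 to 3693 H3K27me3 only and 5221 to 10866 with both, and equal covered length gave 2099 H3K4me1-only regions, against 4526.

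The percent of starts called, H3K4me1 minus H3K27me3, was 0.238 points and turned negative with a 500-bp window (-0.0992), at least 50% of the window covered (-0.744), islands of at least 2 kb (-1.11) and equal covered length (-3.34), and ranged from -2.75 to 3.23 with a library left out (-0.169 without H3K4me1 replicate 2, -2.75 without H3K27me3 replicate 2). GSK-J4 minus DMSO for H3K27me3 starts with H3K4me1 was -2.36 points and ranged from -14 (without H3K4me1 DMSO replicate 2) to 4.40, and was positive without either H3K4me1 GSK-J4 library (4.40 and 1.68), since 1 call then suffices. For H3K4me1 starts with H3K27me3, measured with settings chosen after the data were seen, it ranged from 4.67 to 35.7. The share of starts with both marks that were H3K4me1 only in siCtrl cells ranged from 42 to 59.1% without each library, and was 41.4% by narrow peaks and 48.7% at equal covered length. Those settings, and the gene lists, bases and sequences with only 1 H3K27me3 library, were also chosen after the data were seen. Island number (2410 to 11080), covered length (4.11 to 9.81 Mb), median width (-4.40 to 0 kb), peaks near starts (-4.98 to -4.12 points) and shared peaks (-17.3 to -7.22 points) did not change sign without any of the 4 libraries, although the width difference was 0 without H3K27me3 replicate 2.

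With the replicate block the mean differences were the same by construction (6744 islands, 6.96 Mb, -2.20 kb, 0.238 and -4.55 points), with exact sign-flip p of 0.500 or 1.00, where 2 pairs allow no less than 0.500. Of the 105 named genes, 35 moved by 2 libraries under narrow peaks and at most 5 under any other setting. CORO1B (-1) changed sign under narrow peaks, as H3K4me1 minus H3K27me3 libraries calling the start. Summits of 3 or 4 tags limit what the narrow peaks can separate.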
